A study of Mus musculus with 8 samples.

Results

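The 8 genes described here encode subunits of the Kv1, Kv2 and Kv3 potassium channels, measured in nuclear RNA of mouse hippocampal place cells: the Kv1 pore subunits Kcna1 and Kcna2, the Kv1 beta subunits Kcnab1 and Kcnab2, the Kv2 pore subunit Kcnb2, and the Kv3 pore subunits Kcnc1, Kcnc2 and Kcnc4. They were chosen by name, and all 8 were among the 15519 genes of the deposited table. Place cells are pyramidal neurons that fire at particular locations. Here they had been picked out by 2-photon imaging of wild-type mice during navigation, and their nuclei were tagged with light and collected. There were 4 libraries of cells labelled Day 0 and 4 of cells labelled Recurring, all WT and all from mouse hippocampus. The labels do not define the 2 classes further, and they give no age, sex or number of nuclei per library. A different mouse number stands in each title and is the only mark of separate animals, so a p-value here reflects the spread among these 8 libraries and no more.

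Voltage-gated potassium channels repolarise the membrane after an action potential. Each channel is a ring of pore subunits, mostly of a single Kv class, and Kv2 rings can also take in modifier subunits. Kv1 channels sit mainly on axons, open near threshold and restrain firing, and cytoplasmic beta subunits ride on them. Kv2 channels form clusters on the soma and proximal dendrites and carry a slow delayed current. Kv3 channels open only when the membrane is strongly depolarised and close fast, which lets neurons fire briefly and often. In the hippocampus they are best known from fast-spiking interneurons and from axon terminals.

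Summed over the 15519 genes of the deposited table, the libraries held between 8374986 and 14887866 reads. Reads outside these genes are not counted. The deposited values are a signal scaled per gene and not corrected for depth, so whole reads were recovered from them and divided by a size factor per library. The result is called the normalized count, and levels are log2 of the normalized count plus 1. Markers of CA1 pyramidal cells were abundant in all 8 libraries. The mean level of 12 such markers was 9.39 to 10.48 in Day 0 and 9.24 to 10.10 in Recurring libraries. Markers of other cells were also read. The interneuron level, a mean over the 11 of 16 listed markers that are in the table, was 1.75 to 5.83 in Day 0 and 2.85 to 7.93 in Recurring libraries, highest in Recurring replicate 2. It differed between groups by 1.80 (2-sided exact permutation p = 0.286, adjusted p = 0.571 over 2 marker lists tested; n = 4 and 4), and the pyramidal level by -0.17 (exact permutation p = 0.6, adjusted p = 0.6). The design allows no p below 0.0286. Without Recurring replicate 2 the interneuron difference was 0.91. Astrocyte markers, 9 of 10 in the table, ranged from 4.14 to 7.86 in Day 0 and from 6.66 to 9.98 in Recurring libraries, a difference of 2.35 between the means. Microglia markers differed by 3.31, oligodendrocyte precursor markers by 2.83 and oligodendrocyte markers by -0.58, and these 4 lists were not tested. In bulk RNA such as this, fewer cells of a type and less RNA per cell cannot be told apart.

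Kcnab1, Kcnab2, Kcnc2 and Kcna2 were read in every library, at no less than 45.7 normalized counts. The other 4, Kcna1, Kcnb2, Kcnc1 and Kcnc4, ranged from 0 or a few counts in some libraries to far higher values in others. No gene of the 8 separated Recurring from Day 0 cells. Of the 7 that passed the filter on low values, 0 were called at an adjusted p under 0.05, where limma called 0 of all 11078 genes tested (0%). At an unadjusted p under 0.05 the count was 0 of 7 too, against 400 of 11078 genes (3.61%), split into 1.87% higher and 1.74% lower in Recurring cells. Fitted with limma's voom on the reads, 0 of 11078 genes were called and 518 had an unadjusted p under 0.05, and without a variance trend limma called 2. In 0 of the 7 were the groups of libraries free of overlap, against 267 of 11078 genes (2.41%, with 1.24% higher and 1.17% lower).

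**Figure D1:**
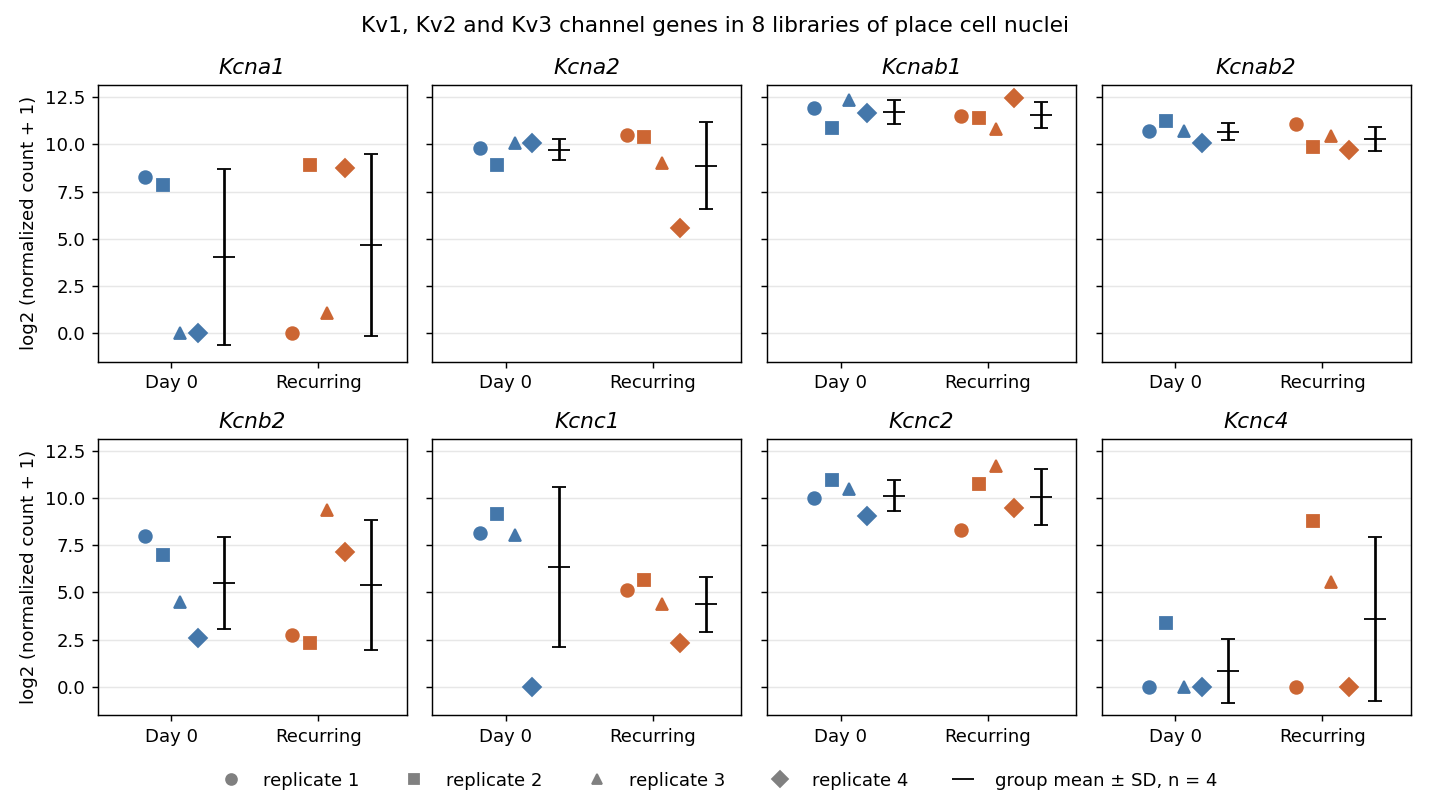
Levels of the 8 channel genes, as log2 of the normalized count plus 1, in each library of Day 0 (blue) and Recurring (orange) cells. Symbols mark the replicate, and the black dash and bar give the group mean and SD (n = 4). Kcnab1 and Kcnab2 stay within a narrow band, Kcnc2 spans a 10.6-fold range, and Kcna1 and Kcnc4 fall into libraries at or near 0 and libraries well above it.

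Among the beta subunits, Kcnab1 encodes the subunit that gives Kv1 channels fast inactivation. Its normalized counts in Day 0 replicates 1 to 4 were 3961, 1853, 5234 and 3259, and in Recurring replicates 1 to 4 they were 2863, 2654, 1827 and 5729. The lowest values of the 2 groups, 1853 and 1827, were close, as were the highest, so the groups covered the same range. Mean log2 levels were 11.71 ± 0.63 (Day 0) and 11.54 ± 0.69 (Recurring; SD, n = 4 each). Recurring minus Day 0 was -0.16 (SE 0.44, 95% interval -1.10 to 0.77, limma adjusted p = 0.998), so the interval reached from 0.467-fold to 1.71-fold. It was the best measured of the 8 genes, with 4.13% of tested genes having a smaller standard error. By the GENCODE vM21 gene models, which are on an older build than GRCm39, the build of the files, 2.34% of its merged exon length overlaps a gene on the opposite strand, A330015K06Rik.

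Kcnab2, whose product helps bring Kv1 channels to the axon, was similarly steady. Its normalized counts were 1648, 2415, 1672 and 1097 in Day 0 replicates 1 to 4 and 2199, 930.0, 1389.9 and 846 in Recurring replicates 1 to 4. Day 0 replicate 2 was highest and Recurring replicate 4 lowest, a 2.85-fold span over all 8 libraries. On the log2 scale, Day 0 averaged 10.68 ± 0.47 and Recurring 10.28 ± 0.63 (SD, n = 4 each), so Recurring minus Day 0 was -0.40 (SE 0.52, 95% interval -1.50 to 0.70, limma adjusted p = 0.998). Of its merged exon length 2.24% overlaps Gm16334 on the same strand in the same annotation.

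The 2 Kv1 pore subunits were unlike each other. Kcna2 was read in all 8 libraries, at normalized counts of 898, 482, 1079 and 1093 in Day 0 replicates 1 to 4 and of 1434, 1360, 523 and 45.7 in Recurring replicates 1 to 4. The Recurring group held both the 2 highest libraries and the lowest. Averaged by group, the log2 level came to 9.72 ± 0.56 for Day 0 and 8.87 ± 2.32 for Recurring (SD, n = 4 each), and they differed by -0.86 (SE 0.97, 95% interval -2.91 to 1.20, limma adjusted p = 0.990). Its direction rested on Recurring replicate 4: without that library the difference was 0.25. Recurring replicate 4 was also the library highest in microglia markers, at a mean level of 9.93 over the 5 of 8 listed genes in the table, against 1.55 to 6.90 in the others, and in oligodendrocyte markers, at 8.59 over 9 of 10, against 3.71 to 8.17 in the others. By share of reads, Day 0 replicate 4 led in oligodendrocyte markers, with 0.123% against 0.0807% in Recurring replicate 4, and its Kcna2 count was 1093. The part of those cells in the low Kcna2 value was not tested.

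Kcna1, which pairs with Kcna2 in axonal channels, was either absent or plainly present. It stood at normalized counts of 310, 227, 0 and 0 in Day 0 replicates 1 to 4 and of 0, 487, 1.06 and 429 in Recurring replicates 1 to 4. Each group thus had 2 libraries with 227 or more counts and 2 with at most 1 read. A normalized count of 3 reads, the limit that a count of 0 allows, was 1.86 to 3.58 over the 8 libraries, so the low libraries lay far below the high ones. This limit covers counting error only. Log2 levels averaged 4.03 ± 4.66 over the Day 0 libraries and 4.68 ± 4.82 over the Recurring ones (SD, n = 4 each), 0.65 apart as Recurring minus Day 0 (SE 2.83, 95% interval -5.33 to 6.63, limma adjusted p = 0.998). That standard error was larger than those of 99.2% of tested genes. Without any 1 library the difference lay between -0.77 (without Recurring replicate 2) and 2.21 (without Recurring replicate 1). The 2 Kv1 genes did not go together in every library. Recurring replicate 1, highest for Kcna2, had no Kcna1 reads, and Recurring replicate 4, lowest for Kcna2, had 423 reads of Kcna1. Recurring replicate 2, however, was highest for Kcna1 and also had a high Kcna2 count, 1360.

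Kcnb2 encodes a Kv2 pore subunit. Its normalized counts were 255, 124, 21.5 and 5.01 in Day 0 replicates 1 to 4 and 5.57, 4.04, 665 and 139 in Recurring replicates 1 to 4. All 8 libraries had reads, but 3 of them had fewer than 10, and the highest stood 165-fold above the lowest. Recurring replicate 3 alone held 54.5% of the summed normalized counts. On the log2 scale, Day 0 averaged 5.51 ± 2.44 and Recurring 5.39 ± 3.44 (SD, n = 4 each), so Recurring minus Day 0 was -0.12 (SE 2.37, 95% interval -5.13 to 4.88, limma adjusted p = 0.998).

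Of the Kv3 genes, Kcnc2 was the one read in every library at a high level. It stood at normalized counts of 1019, 2000.1, 1416 and 519 in Day 0 replicates 1 to 4 and of 312, 1728, 3310.4 and 706 in Recurring replicates 1 to 4. The Recurring libraries were spread more widely and enclosed the Day 0 range. Log2 levels averaged 10.11 ± 0.83 over the Day 0 libraries and 10.05 ± 1.49 over the Recurring ones (SD, n = 4 each), -0.06 apart as Recurring minus Day 0 (SE 0.73, 95% interval -1.60 to 1.48, limma adjusted p = 0.998). The interval reached from 0.330-fold to 2.78-fold, so a change of 2-fold either way was within it.

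Kcnc1, a Kv3 subunit of fast-firing neurons, had its 3 highest values in Day 0 libraries. The normalized counts were 284, 567, 262 and 0 in Day 0 replicates 1 to 4 and 33.4, 49.2, 20.1 and 4.06 in Recurring replicates 1 to 4. Thus 3 Day 0 libraries lay above all Recurring libraries, and the remaining one, Day 0 replicate 4, lay below all of them. On the log2 scale, Day 0 averaged 6.34 ± 4.25 and Recurring 4.37 ± 1.45 (SD, n = 4 each), so Recurring minus Day 0 was -1.96 (SE 2.43, 95% interval -7.09 to 3.16, limma adjusted p = 0.997). Without Day 0 replicate 4 the difference was -4.07 (SE 2.05, limma unadjusted p = 0.0643, adjusted p = 0.992), which missed the threshold as well. Without Day 0 replicate 2, the highest library, it was -1.02. Day 0 replicate 4 was also the library lowest in interneuron markers, at 1.75, but the libraries highest in them, Recurring replicate 2 at 7.93 and Day 0 replicate 1 at 5.83, had 49.2 and 284 normalized counts of Kcnc1. The part of interneuron RNA in these values was not tested.

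Kcnc4, a Kv3 subunit with fast inactivation found in axon terminals, did not pass the filter. Its reads numbered 0, 12, 0 and 0 in Day 0 replicates 1 to 4 and 0, 545, 44 and 0 in Recurring replicates 1 to 4. Recurring replicate 2 held 88.7% of its summed normalized counts. With no filter its difference was 2.74 (SE 2.00, limma unadjusted p = 0.187, adjusted p = 0.995). The library that carried it was the one highest in interneuron markers. It had 5740 reads of Gad1 and 1781 of Gad2, the enzymes of GABA synthesis, 559 of the fast-spiking cell gene Pvalb and 0 of Vip. Day 0 replicate 1, next in interneuron level at 5.83, had 1304 reads of Gad1 and 0 of Kcnc4. Recurring replicate 3, at 5.38, had 44 reads of Kcnc4. For the fast-spiking markers, with 2 of 6 listed genes in the table, Recurring replicate 2 stood at 9.62. Recurring replicate 4 was next at 6.81 and had 0 reads of Kcnc4. Astrocyte markers were also high in Recurring replicate 2, at 9.79 against 9.98 in Recurring replicate 1. The part of interneurons or other cells in the Kcnc4 reads was not tested. Recurring replicate 2 was also highest for Kcna1, and, among subunits outside the 8 genes, for Kcna4, Kcnab3 and Kcns2, while Kcnv1, Kcng2 and Kcns1 had 0 reads there.

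**Figure D2:**
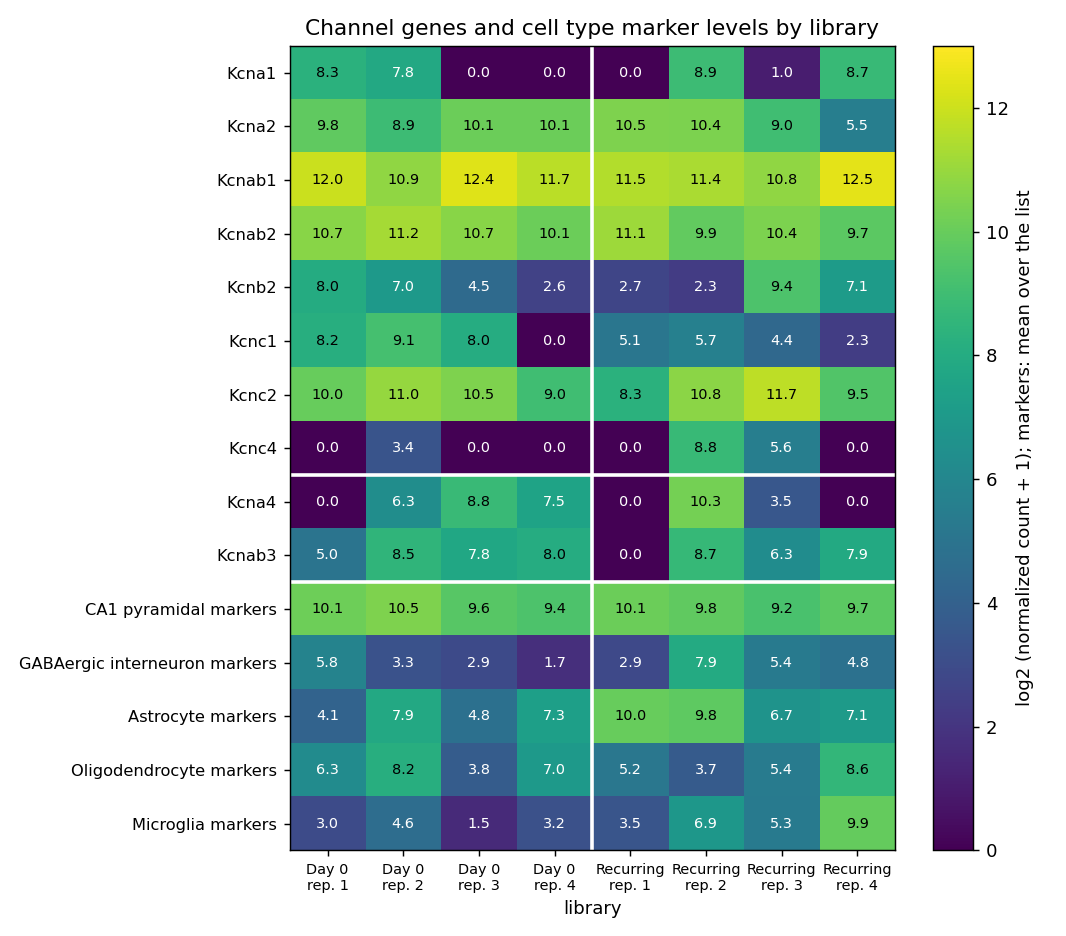
Levels by library (columns) of the 8 genes, of 2 further Kv1 subunit genes, and of 5 cell type marker lists (mean over the list), all as log2 of the normalized count plus 1, with the value printed in each cell. Recurring replicate 2 has the highest interneuron level, 7.9, and the highest Kcna1, Kcnc4, Kcna4 and Kcnab3 levels, while the pyramidal row stays between 9.2 and 10.5.

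Other interneuron genes were patchy. Slc32a1, the vesicular GABA transporter, had 250, 196 and 2 reads in Day 0 replicate 1, Recurring replicate 2 and Recurring replicate 3 and 0 in the other libraries. Vip, of another interneuron class, had 2310 reads in Recurring replicate 3, 235 in Recurring replicate 4 and at most 1 elsewhere. Pvalb was at 0 in 4 of the 8 libraries, and Sst was read in all of them, at 74 to 371 reads. By contrast Slc17a7, the glutamate transporter of pyramidal neurons, had 1182 to 6426 reads. The abundant channel genes Kcnab1, Kcnab2, Kcnc2 and Kcna2 were read in libraries with no reads of Slc32a1.

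To set the genes against one another, normalized counts were divided by the merged exon length of each gene in kilobases, from GENCODE vM21. Kcnab1 came first, with a median of 356 per kilobase over 8 libraries and a range of 213 to 667. Kcnab2 followed at 272 (152 to 433), Kcnc2 at 171 (43.7 to 464) and Kcna2 at 83.0 (3.83 to 120). Then came Kcna1 at 23.9 (0 to 102), Kcnb2 at 4.81 (0.266 to 43.9), Kcnc1 at 4.37 (0 to 59.9) and Kcnc4 at 0 (0 to 120). No neighbours in this order stood apart: the mean log2 difference of each of the 7 adjacent pairs was smaller than its own SD over the 8 libraries. Of the pairs further apart, some did and some did not. Kcnab1 exceeded Kcna2 in 8 of 8 libraries, by 2.75 ± 1.83 on the log2 scale (SD, n = 8 libraries). Kcnc2 exceeded Kcnc1 in 8 of 8, by 4.42 ± 2.01. Kcnab1 and Kcnc2 differed by only 1.27 ± 1.49, and Kcna1 and Kcnc1 by 0.30 ± 3.44. Isoforms were not resolved, so a gene with long alternative exons is understated on this scale.

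**Figure D3:**
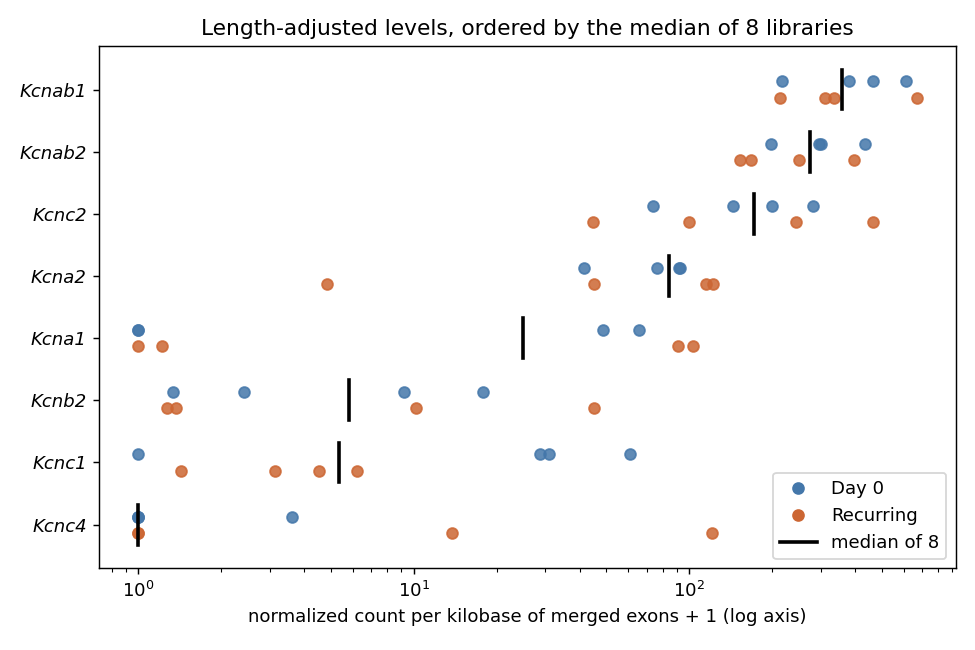
Normalized count per kilobase of merged exon length plus 1, on a log axis, for each library of Day 0 (blue) and Recurring (orange) cells, with the median of the 8 libraries as a black line. Kcnab1, Kcnab2 and Kcnc2 lead at medians of 356, 272 and 171, and the lower 4 genes spread over a far wider range.

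The spread between libraries was smallest for the 4 steadily read genes. Over the 8 libraries the SD of the log2 level was 0.55 for Kcnab2, 0.62 for Kcnab1, 1.11 for Kcnc2 and 1.62 for Kcna2. It was 2.76 for Kcnb2, 3.12 for Kcnc1, 3.39 for Kcnc4 and 4.40 for Kcna1, beside a median of 2.42 over all tested genes. Libraries at 0 reads numbered 3 for Kcna1, 1 for Kcnc1 and 5 for Kcnc4, and 45.6% of tested genes had 0 reads in at least 1 library. Day 0 replicate 4 had the fewest of the 8 genes at 10 or more normalized counts, 4, and the other libraries had between 5 and 7.

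Further subunits were compared in the same way. Of 22 such genes listed for these channels (pore, beta, modifier and Kcne subunits), 7 were in the table and 5 passed the filter, 1 of them with a higher and 4 with a lower mean in Recurring cells, and 0 were called in either direction. Their median difference was -2.22, beside 0.005 over all tested genes. For the 7 tested genes of the first set, 1 had a higher and 6 a lower mean, with a median of -0.16, while over all tested genes 50.1% were higher and 49.9% lower. The pore subunit gene Kcna4, of inactivating Kv1 channels, differed by -2.22 (SE 2.75). Without Recurring replicate 2, the library highest for both Kcna4 and Kcna1, the Kcna4 difference was -4.49, and that of Kcna1 above was -0.77. The beta subunit gene Kcnab3 differed by -1.60 (SE 2.10). It was at 0 reads in Recurring replicate 1, without which its difference was 0.31.

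Modifier subunits form no channels alone and alter Kv2 channels when they join them. Kcnv1 had normalized counts of 402, 199, 603 and 983 in Day 0 replicates 1 to 4 and of 792, 0, 244 and 0 in Recurring replicates 1 to 4. Recurring replicates 2 and 4 had no reads and the other Recurring libraries lay within the Day 0 range. Its difference was -4.48 (SE 2.25, limma unadjusted p = 0.0626, adjusted p = 0.981). Kcns2 had 350, 65.4, 1.19 and 15.0 in Day 0 replicates 1 to 4 and 193, 604, 352 and 451 in Recurring replicates 1 to 4. Day 0 replicate 1 lay inside the Recurring range and the other Day 0 libraries below it, a difference of 3.62 (SE 1.85, limma unadjusted p = 0.0668, adjusted p = 0.981). Kcns3 differed by -2.84 (SE 2.70), and by -5.03 without Day 0 replicate 3 and -1.60 without Recurring replicate 3. Kcns1 and Kcng2 were below the filter, with 96, 2, 0 and 107 reads of Kcns1 in Day 0 replicates 1 to 4 and 0, 0, 1 and 0 in Recurring replicates 1 to 4. Kcng2 had 3, 28, 35 and 0 reads in Day 0 and 0 in each Recurring library. With no filter Kcns1 differed by -3.32 (SE 1.64, limma unadjusted p = 0.0580, adjusted p = 0.995) and Kcng2 by -2.91 (SE 1.28, limma unadjusted p = 0.0354, adjusted p = 0.995). In that fit 650 of 15519 genes had a limma unadjusted p under 0.05 and 0 were called. Every gene in the deposited table was read in at least 3 libraries. Kcng2 was read in 3, all Day 0, so it is in the table only through the group where it is high. Its p-value is therefore no support for a difference.

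**Figure D4:**
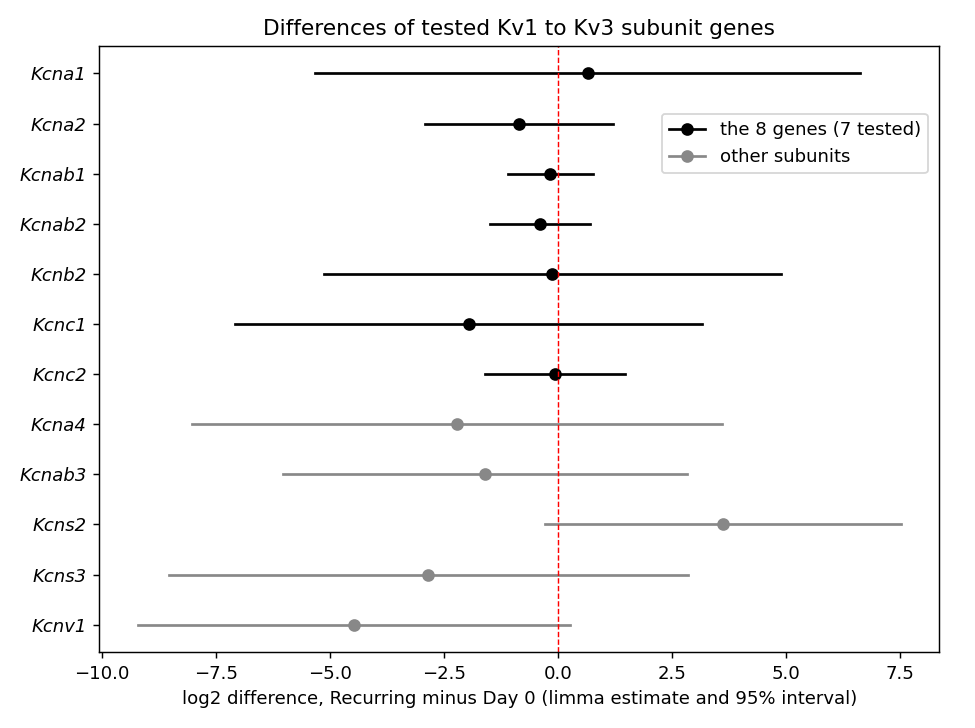
Recurring minus Day 0 difference of the log2 level, as limma's estimate (point) with its 95% interval (line), for the 7 tested genes of the first set (black) and the 5 tested further subunit genes (grey). All 12 intervals include 0, and the narrowest is that of Kcnab1, -1.10 to 0.77.

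Proteins that anchor or accompany these channels were compared last. Of 17 listed partners of Kv1 and Kv2 channels 16 were tested, 6 with a higher and 10 with a lower mean in Recurring cells (median difference -0.14), and 0 were called in either direction. Adam23, a receptor of the secreted Kv1 partner Lgi1, differed by -1.07 (SE 0.50, limma unadjusted p = 0.0465, adjusted p = 0.981), the 1 of 16 partners with an unadjusted p under 0.05, beside 3.61% of all tested genes. That unadjusted p was 0.172 without a variance trend in limma, and with library weights the difference was -0.47 (limma unadjusted p = 0.319). Lgi1 itself differed by 1.12 (SE 0.85), Amigo3, of the family of Kv2 partners, by -4.07 (SE 2.33) and the scaffold gene Dlg4 by 0.61 (SE 0.78), all at limma adjusted p-values of 0.981 to 0.998.

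The gene most alike in pattern was found for each of the 7 tested genes as the one with the smallest root mean square difference of mean-centred log2 levels over the 8 libraries, among 9607 tested genes. For Kcnab1 it was Tmem41b, at 0.25, for Kcnab2 Epn2, at 0.19, for Kcnc2 Bmpr1a, at 0.45, and for Kcna2 Nup155, at 0.46. For the patchy genes it was Wls for Kcna1, at 0.99, Lrrc73 for Kcnc1, at 0.95, and Mir344c for Kcnb2, at 0.65. None of these was another channel gene of the set. The smallest value within the set was 0.91, for Kcnab1 and Kcnab2. It was larger than the SD of either gene over the 8 libraries, 0.62 and 0.55. The 2 genes thus varied little but did not rise and fall together. Recurring replicate 4 was highest for Kcnab1 and lowest for Kcnab2. By closeness, Kcnab2 ranked 1513 among the genes compared with Kcnab1.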

How the data were processed

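The 8 libraries were prepared from nuclear RNA with the SMART-Seq mRNA LP kit, per the labels' protocols. The submitters' processing notes name STAR, HTSeq and the build GRCm39, without versions. The authors deposited a scaled signal per gene and library. Each gene's values proved to be whole reads multiplied by 1 constant for that gene, of the kind that trimmed-mean scaling gives when applied across genes. After division by it, 95910 of 95910 values above 0 (100%) lay within 0.1 of a whole read. This recovery was tested on simulated data.

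Size factors by the median of ratios (0.837 to 1.61) then put libraries on 1 scale. A gene was tested if 4 libraries or more reached a normalized count of 10, which 11078 genes did. The test was limma 3.58.1 (R 4.3.3) on log2 of the count plus 1, with an intensity trend in the variance and Benjamini-Hochberg adjustment. Replicates were numbered in order of deposit and pair no libraries. The genes and lists were chosen with earlier results of these data known. Named were all 8 genes, further subunits in the table, the 2 partners with the smallest p in each direction, defining cell type markers and the nearest gene in pattern, leaving out predicted genes, RIKEN clones and pseudogenes by symbol. Some subunit genes are not reported here. Alternatives were other scalings, pseudocounts, filters and fits, and leaving out each library.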

Additional observations from a re-analysis of the deposited data

Results flagged for a closer look

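Each group of 4 libraries was checked for 1 library far from the other 3 (by Dixon's ratio at its 95% critical value), for the channel and partner genes named above and 10 marker lists. Of 58 groups 6 had one. Chance gives about 1 in 20 for continuous values, a rate that does not apply where the other 3 libraries all stand at 0, as they do for Kcnc4, Kcns1 and Amigo3 below. For Kcnc1, Day 0 replicate 4 stood at a log2 level of 0 and the other Day 0 libraries at 8.04 to 9.15. For Kcnc4, Day 0 replicate 2 stood at 3.40 and the others at 0. For Kcns3, Day 0 replicate 3 stood at 0 and the others at 7.99 to 9.58. For Lgi1, Recurring replicate 4 stood at 8.69 and the others at 10.51 to 10.89. For Amigo3, Recurring replicate 1 stood at 7.87 and the others at 0. For Kcns1, Recurring replicate 3 stood at 1.04 and the others at 0.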

How the results depend on the processing

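None of the 8 genes was called under any of the 18 alternatives that gave it a value. Over all genes limma called 2 without a variance trend and 0 under the other 17. No paired analysis was made, because each title gives a different mouse number and the labels pair no libraries. Kcnab2 and Kcnc1 kept their direction under all 18 alternatives, and 20 of 124 alternative values of the 7 tested genes had the other sign, 15 of them on leaving out 1 library. Leaving out 1 library gave -0.77 to 2.21 for Kcna1, -1.40 to 0.25 for Kcna2, -0.48 to 0.073 for Kcnab1, -1.45 to 0.90 for Kcnb2, -0.61 to 0.52 for Kcnc2, -2.60 to 0.31 for Kcnab3 and -4.07 to -1.02 for Kcnc1. It gave -0.67 to -0.21 for Kcnab2, -4.49 to -1.07 for Kcna4, 2.36 to 4.80 for Kcns2, -5.03 to -1.60 for Kcns3, -6.22 to -3.01 for Kcnv1, 0.62 to 1.77 for Lgi1, 0.29 to 1.02 for Dlg4, -1.43 to -0.72 for Adam23 and -6.03 to -3.41 for Amigo3. The pyramidal marker difference lay between -0.34 and 0.020 and the interneuron marker difference between 0.91 and 2.60. With library weights the differences were -1.57 for Kcna1, 0.21 for Kcnb2 and 0.038 for Kcnc2. Kcnb2 was at 0.096 with a pseudocount of 10 and Kcnc2 at 0.038 with the deposited values as they stand. The causes were not tested. Requiring 10 normalized counts in 6 libraries left out Kcna1 and Kcnb2. With 4 libraries a group, differences inside the intervals given are not excluded, for the steady as for the patchy genes. The intervals are no limit of detection, since the main limma fit called 0 of 11078 genes.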
